A study of Mus musculus with 10 samples.

Results

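The genes described here are those of DNA replication and S phase: 40 genes of origin licensing, the replicative helicase, the polymerases, the sliding clamp, nucleotide supply, histone deposition and the switch into S phase. They were taken by gene symbol from the 55573 genes counted in each library. Bulk RNA was sequenced from HSPCs, the hematopoietic stem and progenitor cells of the bone marrow, which renew the blood, in C57BL/6 mice 16 weeks old. Of the 10 libraries, 5 came from mice given epidermal growth factor (EGF), a growth factor that acts through the receptor EGFR, and 5 from mice given saline. Both were injected under the skin, and all animals had received 500 cGy of total body radiation 6 weeks before. The comparison asks whether the replication genes of these cells differed between EGF and saline at that time.

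Cells prepare for S phase by loading the MCM ring onto origins, which the origin recognition complex, CDC6 and CDT1 do together. CDC45 and the GINS complex then turn the ring into an active helicase, polymerases alpha, delta and epsilon copy the strands, and PCNA, the sliding clamp loaded by replication factor C, holds the polymerases on DNA. Transcription of most of these genes is driven by E2F factors and peaks at the G1/S boundary. Their level in bulk RNA therefore depends in part on how many cells are in or near S phase. Most long-term blood stem cells rest outside the cycle, while the progenitors below them divide often. In bulk RNA, fewer cells in S phase and less of the message per cell cannot be told apart.

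The letters that E2F factors are known to bind were searched in the promoters of these genes (RefSeq, GRCm38.p6, 250 bases before to 50 bases after each start). A promoter window was given for 33 of the 40. The motif was written as TTTCCCGC, TTTCGCGC, TTTGCCGC or TTTGGCGC on both strands, and it was present for 13 of the 33 genes, 39.4%, against 2.6% of the 27025 genes with a window of the same length. A search for TTTGAA, the cell cycle homology region of late cell cycle genes, on both strands found it for 4 of these 33 genes, against 24 of 33 G2 and mitosis genes and 20.2% of all genes. CCAAT, the box bound by NF-Y, was found on either strand for 20 of the 33, against 41.1% of all genes. It was found for 24 of 33 G2 and mitosis genes, so it is not particular to the replication genes. The E2F motif was found for 3 of 33 G2 and mitosis genes. A match describes the letters only. The promoters of 2 MCM subunits, of Cdc6 and of Orc1 are shown because they carry the motif upstream of the start, with the motif letters in capitals and 160 bases before the start printed in the direction of transcription.
Mcm6 promoter (chr1:128359706-128359865, minus strand): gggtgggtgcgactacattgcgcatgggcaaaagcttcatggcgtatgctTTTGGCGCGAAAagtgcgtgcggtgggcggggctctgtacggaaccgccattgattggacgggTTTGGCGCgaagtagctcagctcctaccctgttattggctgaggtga
Mcm5 promoter (chr8:75109349-75109508, plus strand): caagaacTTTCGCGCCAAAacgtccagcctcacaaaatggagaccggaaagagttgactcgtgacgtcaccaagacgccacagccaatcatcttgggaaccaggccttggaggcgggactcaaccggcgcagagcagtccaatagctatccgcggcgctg
Cdc6 promoter (chr11:98907991-98908150, plus strand): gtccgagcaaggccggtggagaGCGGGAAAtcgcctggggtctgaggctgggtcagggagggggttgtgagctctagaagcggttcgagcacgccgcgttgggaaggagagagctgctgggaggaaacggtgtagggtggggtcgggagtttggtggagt
Orc1 promoter (chr4:108579294-108579453, plus strand): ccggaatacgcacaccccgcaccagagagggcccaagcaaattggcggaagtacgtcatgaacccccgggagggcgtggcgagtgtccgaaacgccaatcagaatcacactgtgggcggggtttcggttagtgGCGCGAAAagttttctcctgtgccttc
In the Mcm6 sequence a pair of motifs overlap in TTTGGCGCGAAA, 110 and 106 bases before the start, and a further copy lies 47 bases before it. In the Mcm5 sequence a pair also overlaps, 153 and 149 bases before the start. The copy in Cdc6 lies 138 bases before the start and that in Orc1 lies 27 bases before it, both on the other strand.

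No replication gene passed the test between EGF and saline. All 40 were among the 12874 genes left by the filter on low counts. At an adjusted p (Benjamini-Hochberg) under 0.05 in the edgeR quasi-likelihood fit, 0 of the 40 were called, beside 0.00777% of all genes tested (1 gene). At an unadjusted p under 0.05 there was 1 of the 40, Gins2, with a log2 fold change below 0. Of all genes, 8.87% had such a p in either direction and 2.73% lower. DESeq2 called 0 of the 40 (0.162% of all genes), limma-voom 0 (0.00777%) and limma-voom with sample quality weights 0 (0.0932%). For none of the 40 did the EGF and Saline libraries separate without overlap, beside 3.27% of all genes. The log2 fold changes of EGF over Saline ranged from -0.57 for Rrm2 to 0.33 for Orc6. Of the 40, 26 lay below 0, beside 51.5% of all genes tested. Their median was -0.062, against -0.012 over all genes tested. A p above the threshold does not show equal levels. The 95% interval of the fold change lay within 2-fold in either direction for 36 of the 40 and within 1.5-fold for 23.

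**Figure D1:**
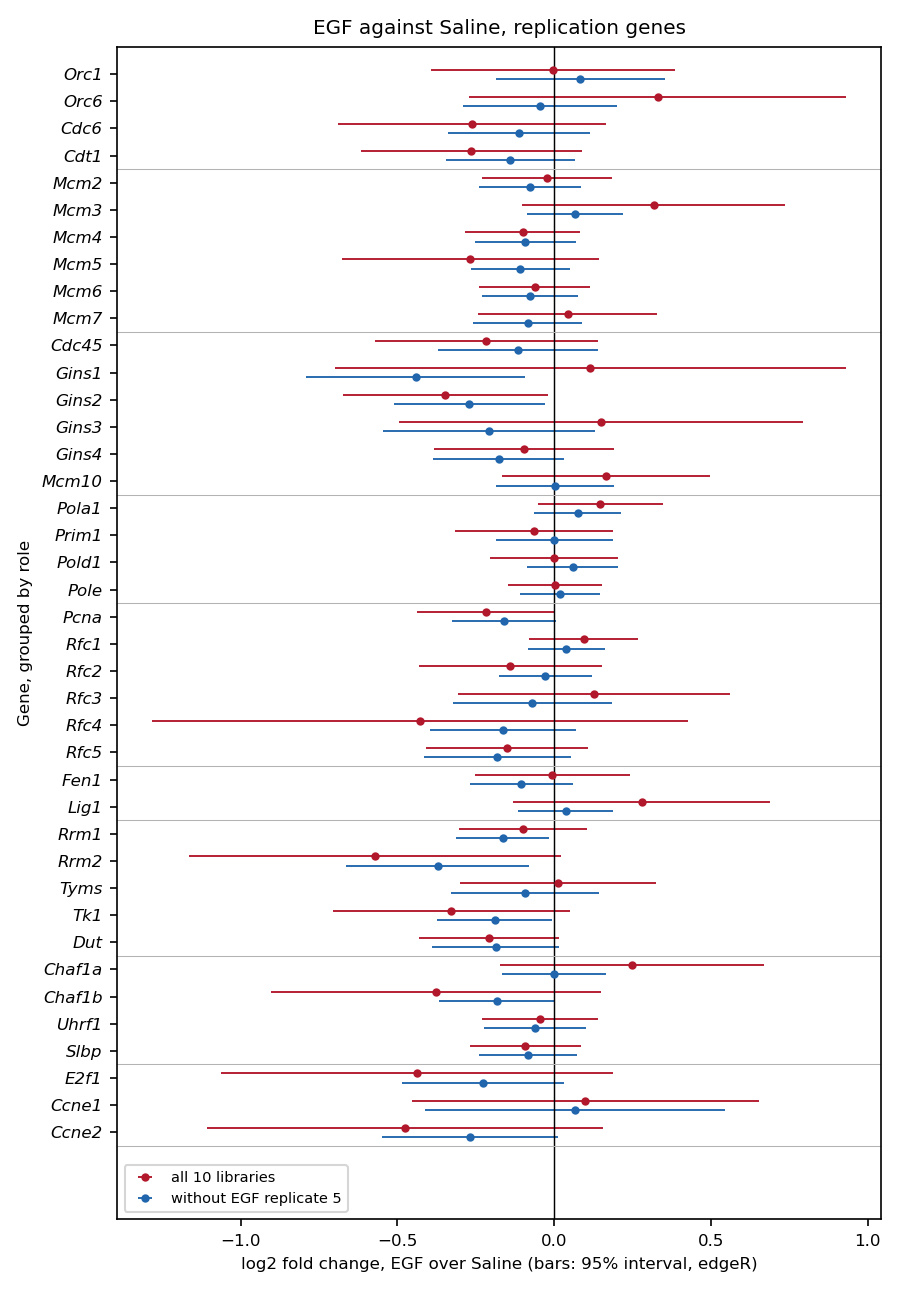
The log2 fold change of EGF over Saline on the horizontal axis is plotted for the 40 replication genes, grouped by role, from edgeR with all 10 libraries (red) and without EGF replicate 5 (blue). Points are estimates and bars are 95% intervals, which are narrower for all 40 genes without that library.

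A single EGF library lay far from the rest, and the intervals were wider with it. The libraries held 6805106 to 8370820 counts each, and 9 of them had a count in 18734 to 20046 genes, where EGF replicate 5 had one in 12731. That library was the highest of the 10 for 16 of the 40 genes and the lowest for another 16, and it was at an extreme for 81.4% of all genes tested. Without it, 0 of the 40 were called by edgeR (8 of 13104 genes, 0.0611%), the median standard error on the log2 scale was 0.0856, against 0.15 with it, and the log2 fold changes ranged from -0.44 for Gins1 to 0.084 for Orc1. Then 30 of the 40 lay below 0, with a median of -0.092 against -0.0002 over all genes. At an unadjusted p under 0.05 there were 5, Rrm2, Gins1, Gins2, Rrm1 and Tk1, all with log2 fold changes below 0. Of all genes, 15.8% had such a p in either direction and 7.39% lower. The 95% interval then lay within 1.5-fold for 38 of the 40 and within 2-fold for all 40. For 0 of the 40 did the remaining groups separate (5.01% of all genes).

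The libraries carried markers of the labelled cells beside those of other cell types. The summed level of 14 stem and progenitor markers was 4111 to 4348 CPM in EGF replicates 1 to 4 and 4999 CPM in EGF replicate 5. After saline it was 3871 to 4205 CPM. The single markers of EGF replicate 5 lay both ways, so its higher sum does not hold for each of them. Among those highest of the 10 libraries there were Myb (1557 CPM) and Angpt1 (798 CPM). Cdk6 (609 CPM), Cd34 (254 CPM), Ly6a and Procr were the lowest of the 10 there. Kit was at 447 to 505 CPM after EGF and 380.3 to 448 CPM after saline. Others of the list were low, with Ly6a at 5.88 to 24.3 CPM after EGF and 11.5 to 16.4 CPM after saline. Slamf1 was at 10.4 to 33.2 CPM after EGF and 7.80 to 19.3 CPM after saline. Procr was at 0 to 13.5 CPM after EGF, with 0 counts in EGF replicate 5, and 6.85 to 11.5 CPM after saline. Of other cell types, the summed level of 10 plasma cell markers was 1295 to 5791 CPM after EGF and 4526 to 10426 CPM after saline. In every Saline library it exceeded the sum of the stem and progenitor markers. The sum of 13 neutrophil and granule markers was 1759 to 2896 CPM after EGF and 1661 to 5798 CPM after saline. That of 8 stroma and endothelium markers was 209.5 to 1001 CPM after EGF and 230 to 1266 CPM after saline. That of 10 T and NK cell markers was 11.3 to 64.7 CPM after EGF and 52.2 to 71.4 CPM after saline. Cd3e, a T cell marker, was at 0 to 2.32 CPM after EGF and 0 to 2.28 CPM after saline. The share of counts from mitochondrial genes was 8.84 ± 0.91% with EGF and 6.92 ± 0.651% with saline (exact two-sided permutation p = 0.00794, the smallest that 5 against 5 allows), higher in 5 of 5 EGF libraries. The share from the nuclear RNA Malat1 was 0.868 ± 0.479% with EGF and 0.396 ± 0.0527% with saline (exact permutation p = 0.0317; SD, n = 5 each). The part of these shares in the values below was not tested. Whether every library had a mouse of its own is not stated in the labels, so the p-values reflect spread among libraries that may be technical.

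Levels per exon length differed widely within the set. On the scale of CPM (the count of a gene relative to the library total, scaled between libraries by TMM) per kilobase of annotated exon, Mcm6 stood at 113 ± 10.2 with EGF (SD, n = 4) and 119 ± 6.99 with saline (SD, n = 5), with EGF replicate 5 left out of these means. Mcm3 had 115 ± 6.45 with EGF (SD, n = 4) and 109.6 ± 9.39 with saline (SD, n = 5), so the order of the 2 differed between the groups, within their spread. Pcna stood at 70.5 ± 7.15 with EGF (SD, n = 4) and 78.7 ± 5.69 with saline (SD, n = 5). Lig1, the DNA ligase of the fork, stood at 71.1 ± 6.29 with EGF (SD, n = 4) and 69.3 ± 4.39 with saline (SD, n = 5), so that it lay above Pcna with EGF and below it with saline, within their spread in the EGF libraries. At the other end, Orc1, the largest subunit of the origin recognition complex, stood at 4.901 ± 0.551 with EGF (SD, n = 4) and 4.62 ± 0.335 with saline (SD, n = 5). Ccne1, which encodes cyclin E1, stood at 4.63 ± 1.98 with EGF (SD, n = 4) and 4.43 ± 0.291 with saline (SD, n = 5). Gins3, a GINS subunit, followed at 5.26 ± 1.197 with EGF (SD, n = 4) and 6.08 ± 0.435 with saline (SD, n = 5). Ccne1 and Orc1 did not differ from each other beyond their spread in either group, nor did Gins3 from Rfc3, the next gene. The union of all annotated exons was used as length, so a gene with rarely used long isoforms is set too low on this scale.

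**Figure D2:**
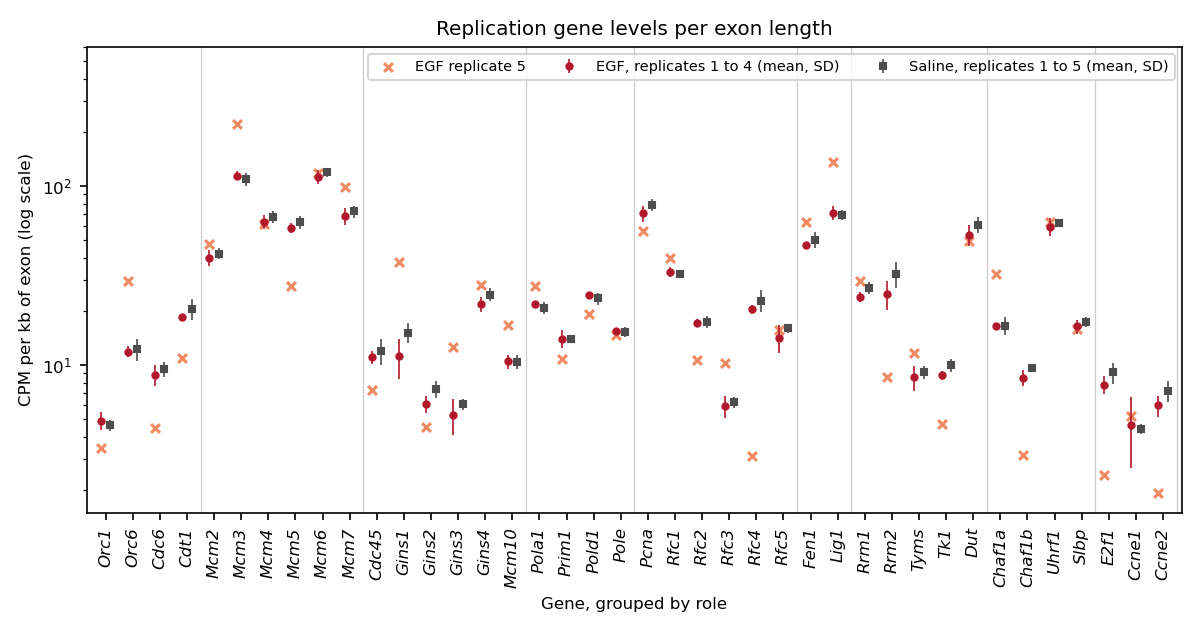
Level of each of the 40 replication genes in CPM per kilobase of exon (log scale), grouped by role from origin licensing on the left to the G1/S switch on the right. Red circles are means of EGF replicates 1 to 4 and grey squares means of the 5 Saline libraries, with SD bars, and orange crosses are EGF replicate 5, which lies away from both for most genes.

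The licensing factors, which load the helicase in G1, did not pass the test. Orc1 lies on chromosome 4 from 108579423 to 108614833 (GRCm38). Its level, with libraries in the order of replicates 1 to 5 here and below, was 18.6, 14.3, 18.1, 17.2 and 12.05 CPM in the EGF libraries, against 14.5, 15.7, 15.8, 17.3 and 17.1 CPM in the Saline libraries. EGF replicates 1 and 3 lay above all Saline libraries, EGF replicates 2 and 5 below all of them, and the log2 fold change was -0.0024 (SE 0.18). Cdc6, the ATPase that recruits the ring to the origin, had 41.6, 51.6, 40.1, 51.9 and 23.3 CPM in the EGF libraries, against 44.8, 45.3, 54.8, 54.4 and 50.9 CPM in the Saline libraries. EGF replicates 1, 3 and 5 were below all Saline libraries and the others within their range. Cdt1, the partner of CDC6 in loading, had 60.1, 58.9, 58.1, 58.04 and 34.6 CPM in the EGF libraries, against 52.4, 63.03, 62.3, 71.9 and 74.1 CPM in the Saline libraries. EGF replicates 1 to 4 kept close together, inside the wider Saline range, and EGF replicate 5 lay below it. Orc6, the smallest subunit of the origin complex, was at 26.7 to 31.7 CPM in EGF replicates 1 to 4, 73.4 CPM in EGF replicate 5 and 25.00 to 37.1 CPM after saline. The log2 fold changes without EGF replicate 5 were -0.11 for Cdc6, -0.14 for Cdt1 and -0.045 for Orc6, against -0.26, -0.26 and 0.33 with it.

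The ring itself, the products of Mcm2 to Mcm7, gave no call in any of its 6 genes. Mcm2, on chromosome 6 from 88883474 to 88898780, was at 284, 299.8, 238, 288 and 330.3 CPM in the EGF libraries, against 267, 274, 312, 299.9 and 309.5 CPM in the Saline libraries. EGF replicate 3 lay below and EGF replicate 5 above all Saline libraries, and the log2 fold change of -0.022 had a 95% interval of -0.23 to 0.19. Mcm3 had 438, 429, 399, 457 and 839.6 CPM in the EGF libraries, against 372, 389, 416, 413 and 465 CPM in the Saline libraries. EGF replicates 1 to 4 lay within the Saline range, and replicate 5 lay above it, at 2.04 times the Saline mean. Mcm5 lay the other way in that library, with 237, 251.5, 214, 233 and 111 CPM in the EGF libraries, against 216, 246, 273, 262 and 262 CPM in the Saline libraries, or 0.4396 times the Saline mean in EGF replicate 5. Mcm7, whose intron holds microRNA genes, had 323, 337, 261, 289 and 441 CPM in the EGF libraries, against 296, 298, 356, 324 and 328 CPM in the Saline libraries. EGF replicates 3 and 4 were below and replicate 5 above the Saline range. Mcm4 was at 198 to 247 CPM after EGF and 215 to 265 CPM after saline, and Mcm6 at 480.2 to 579 CPM after EGF and 511 to 589 CPM after saline. In these 6 genes EGF replicate 3 was the lowest of EGF replicates 1 to 4. Without EGF replicate 5 the log2 fold changes of the 6 lay between -0.11 for Mcm5 and 0.067 for Mcm3, with standard errors of 0.070 for Mcm3 to 0.080 for Mcm7 and adjusted p of 0.485 for Mcm5 to 0.666 for Mcm3 (edgeR).

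The factors that switch the ring on held the gene with the smallest p of the 40. Gins2, a subunit of the GINS complex on chromosome 8 from 120578633 to 120589304, had 27.6, 23.6, 21.7, 26.9 and 18.5 CPM in the EGF libraries, against 26.02, 30.9, 34.8, 30.2 and 28.4 CPM in the Saline libraries. EGF replicates 2, 3 and 5 lay below all Saline libraries, and replicates 1 and 4 above Saline replicate 1 only. Its log2 fold change was -0.35 (SE 0.15, edgeR adjusted p = 0.552), and -0.27 (SE 0.11, adjusted p = 0.271) without EGF replicate 5. Exons of Gse1 on the other strand cover 67.3% of its exonic bases, and without a stated strand setting the reads of both genes cannot be told apart. Cdc45, the helicase cofactor, had 35.99, 36.8, 39.1, 43.4 and 25.6 CPM in the EGF libraries, against 34.8, 43.6, 51.9, 43.5 and 36.3 CPM in the Saline libraries, with groups that overlapped and a log2 fold change of -0.22 (SE 0.16). Gins1 and Gins3 changed sign with a single library. Gins1 was at 12.98 to 22.9 CPM in EGF replicates 1 to 4, 57.2 CPM in EGF replicate 5 and 19.2 to 26.9 CPM after saline, so that its log2 fold change was 0.12 with that library and -0.44 (SE 0.16, edgeR adjusted p = 0.222) without it. Gins3 likewise had 0.15 with it and -0.21 without. Gins4 had -0.10 with all libraries, and leaving out 1 library at a time gave -0.18 without EGF replicate 5 to -0.034 without EGF replicate 3. Mcm10, which steadies the helicase at the fork, was at 74.9 to 129 CPM after EGF and 69.9 to 89.5 CPM after saline, with a log2 fold change of 0.0036 without EGF replicate 5.

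**Figure D3:**
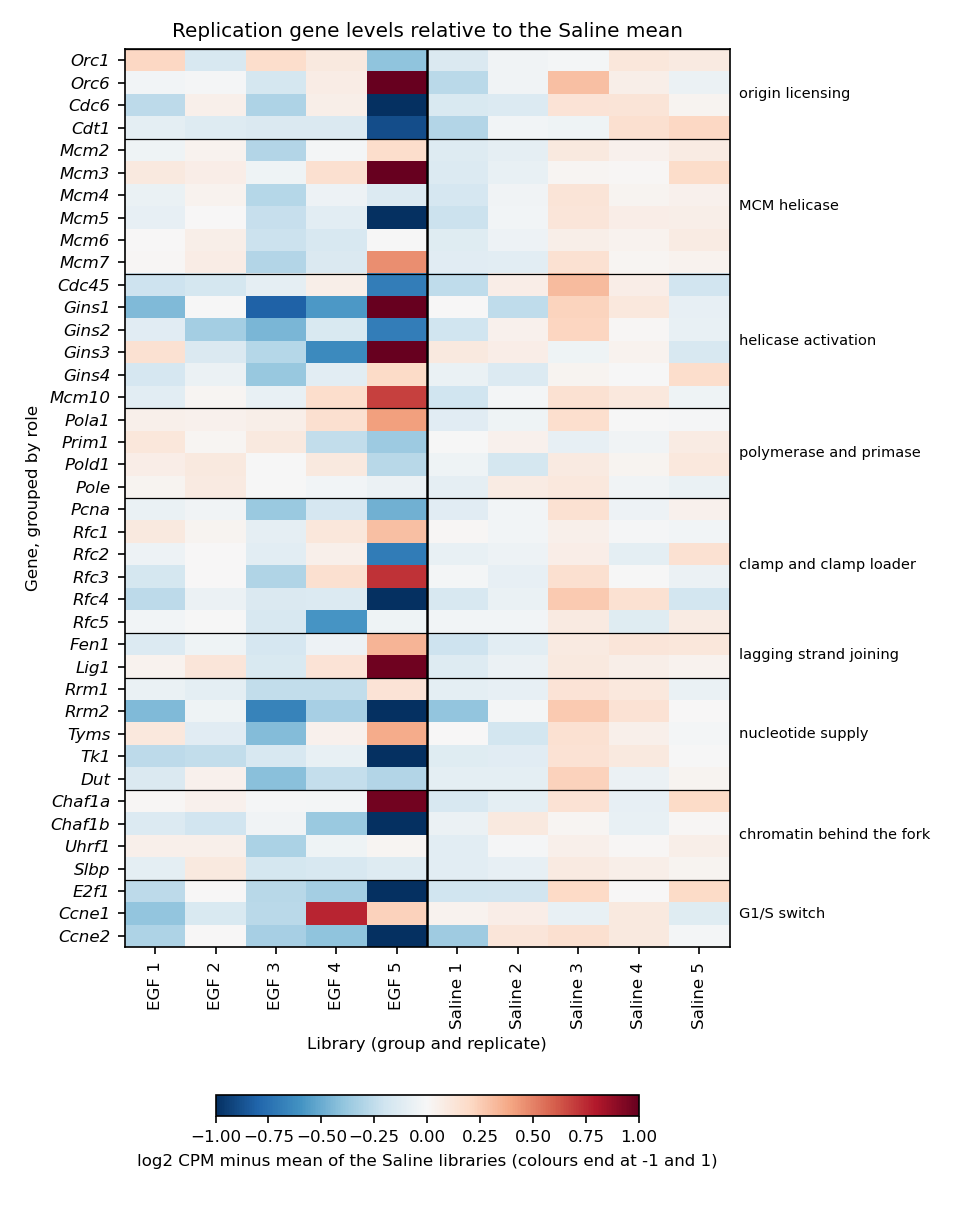
Level of the 40 replication genes (rows, by role) in the 10 libraries (columns, EGF on the left), as log2 CPM minus the mean of the 5 Saline libraries, with colours ending at -1 and 1. EGF replicate 5 holds the strongest colours in both directions, EGF replicate 3 is mostly blue, and Saline replicate 3 is mostly red.

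No polymerase gene was called. Pole, the catalytic subunit of the leading-strand polymerase epsilon, had 175, 182, 171, 169 and 164 CPM in the EGF libraries, against 161, 181, 184, 168 and 164 CPM in the Saline libraries. All EGF libraries lay within the Saline range, and the log2 fold change of 0.0038 had a 95% interval of -0.15 to 0.15. Pola1, the catalytic subunit of polymerase alpha, had 192, 190.2, 192, 206 and 245 CPM in the EGF libraries, against 171, 179, 207, 184 and 183 CPM in the Saline libraries. EGF replicates 1 to 4 lay above 4 of the 5 Saline libraries and below Saline replicate 3, and replicate 5 was above all of them (log2 fold change 0.15, SE 0.091, edgeR adjusted p = 0.601). Pold1, the catalytic subunit of polymerase delta, was at 94.6 to 123 CPM after EGF and 101 to 123 CPM after saline, and Prim1, the primase that starts each fragment, at 42.2 to 58.9 CPM after EGF and 51.3 to 57.4 CPM after saline. Without EGF replicate 5 these 4 genes had log2 fold changes of 0.0015 to 0.075, all above 0.

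The sliding clamp gene Pcna, on chromosome 2 from 132249162 to 132253314, had 179.7, 184, 146, 168 and 135 CPM in the EGF libraries, against 174, 185, 209.6, 182 and 194 CPM in the Saline libraries. EGF replicates 3, 4 and 5 were below all Saline libraries, and replicates 1 and 2 within their range. The log2 fold change was -0.22 (SE 0.10, edgeR adjusted p = 0.552), and -0.16 (adjusted p = 0.336) without EGF replicate 5. A processed pseudogene, Pcna-ps2, took 11 to 26 counts per library. How reads that match both genes were counted is not stated. Rfc1, the large subunit of the clamp loader, had 208, 198, 182, 209.6 and 239 CPM in the EGF libraries, against 195, 191, 201, 193 and 190.2 CPM in the Saline libraries. EGF replicates 1, 4 and 5 lay above and EGF replicate 3 below all Saline libraries, with a log2 fold change of 0.10. Of the small loader subunits, Rfc4 stood out by 1 library, at 29.1 to 33.5 CPM in EGF replicates 1 to 4, 4.76 CPM in EGF replicate 5 and 30.7 to 41.95 CPM after saline. Rfc2 was at 67.8 to 114 CPM after EGF and 103 to 123 CPM after saline, Rfc3 at 18.1 to 37.1 CPM after EGF and 21.1 to 24.96 CPM after saline and Rfc5 at 49.9 to 75.2 CPM after EGF and 69.4 to 79.98 CPM after saline. For these 4 the log2 fold changes without EGF replicate 5 ranged from -0.18 for Rfc5 to -0.027 for Rfc2, and none passed edgeR's test.

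Fen1, the flap nuclease that trims Okazaki fragments, had 110.4, 118, 108, 117 and 154 CPM in the EGF libraries, against 105, 113, 129, 132 and 131 CPM in the Saline libraries. EGF replicates 1 to 4 were inside the Saline range. Exons of genes on the other strand, Tmem258 and Gm10143, cover 84.2% of its exonic bases, so its counts are uncertain. Lig1, the ligase that seals the fragments, had 302, 320.4, 266, 325 and 581 CPM in the EGF libraries, against 270.2, 283, 317, 307 and 302 CPM in the Saline libraries. EGF replicates 2, 4 and 5 lay above all Saline libraries and EGF replicate 3 below them. Its log2 fold change was 0.28 (SE 0.19) with all libraries and 0.037 (SE 0.070) without EGF replicate 5, whose level was 1.96 times the Saline mean.

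All 5 genes of nucleotide supply lay below saline when EGF replicate 5 was left out, without a call. Rrm2, the regulated subunit of ribonucleotide reductase on chromosome 12 from 24708241 to 24714146, had 65.2, 85.8, 55.6, 70.3 and 23.95 CPM in the EGF libraries, against 67.4, 87.4, 106, 97.7 and 88.7 CPM in the Saline libraries. EGF replicates 1, 3 and 5 lay below all Saline libraries, and replicates 2 and 4 above Saline replicate 1 only. Its log2 fold change was -0.57 (SE 0.27, 95% interval -1.17 to 0.022, edgeR adjusted p = 0.552). Without EGF replicate 5 it was -0.37 (SE 0.14, 95% interval -0.66 to -0.080, adjusted p = 0.222). The constant subunit Rrm1 had 284, 278, 251, 251 and 327 CPM in the EGF libraries, against 278, 281, 326, 319.7 and 284 CPM in the Saline libraries. EGF replicates 3 and 4 lay below all Saline libraries, and replicate 5 just above them. Tk1, the thymidine kinase of S phase cells on chromosome 11 from 117815526 to 117826092, had 43.3, 43.7, 46.5, 49.3 and 24.5 CPM in the EGF libraries, against 47.6, 47.98, 57.4, 55.5 and 51.8 CPM in the Saline libraries. Of the EGF libraries, replicate 4 alone reached the Saline range (log2 fold change -0.33, SE 0.17, edgeR adjusted p = 0.559; -0.19 and adjusted p = 0.304 without EGF replicate 5). Dut, which removes dUTP from the pool, had 133, 151, 109.7, 124 and 119 CPM in the EGF libraries, against 137, 137, 172, 141 and 149.6 CPM in the Saline libraries. EGF replicates 1, 3, 4 and 5 lay below all Saline libraries and replicate 2 inside their range (log2 fold change -0.21, edgeR adjusted p = 0.552). Tyms, the synthase of thymidylate, had 59.6, 51.1, 40.9, 57.1 and 71.7 CPM in the EGF libraries, against 55.6, 48.8, 61.6, 57.5 and 54.6 CPM in the Saline libraries. EGF replicate 3 was below and EGF replicate 5 above all Saline libraries, and the log2 fold change was 0.012 (SE 0.14) with all libraries and -0.092 (SE 0.11) without EGF replicate 5. The median of these 5 genes was -0.21, and -0.19 without EGF replicate 5.

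Among genes of chromatin behind the fork, Slbp, which binds the stem-loop of histone messages, had 99.2, 113, 93.6, 94.8 and 96.9 CPM in the EGF libraries, against 98.5, 100.1, 113, 110.5 and 108 CPM in the Saline libraries. EGF replicates 3, 4 and 5 lay below and EGF replicate 2 just above the Saline range (log2 fold change -0.091, SE 0.080). Uhrf1, which brings the maintenance DNA methyltransferase to new DNA, had 274, 273, 212, 256 and 268 CPM in the EGF libraries, against 245, 262, 274, 266 and 275 CPM in the Saline libraries. EGF replicate 3 lay below all Saline libraries and the others within their range. Chaf1a, the large subunit of the histone chaperone CAF-1, had 148, 151, 146, 145 and 287 CPM in the EGF libraries, against 132, 137, 163, 139 and 168 CPM in the Saline libraries. EGF replicates 1 to 4 were within the Saline range, and the log2 fold change was 0.25 with all libraries and -0.0003 without EGF replicate 5. Exons of Ubxn6 on the other strand cover 52.5% of its exonic bases. Its partner subunit Chaf1b was at 34.9 to 44.2 CPM in EGF replicates 1 to 4, 14.7 CPM in EGF replicate 5 and 43.01 to 48.5 CPM after saline, so within the same complex that library lay high for one subunit and low for the other.

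The switch into S phase was read from E2f1 and the E cyclins. E2f1, an activating E2F factor on chromosome 2 from 154559407 to 154569892, had 23.8, 28.6, 23.5, 22.5 and 7.704 CPM in the EGF libraries, against 24.9, 25.03, 32.8, 28.6 and 32.6 CPM in the Saline libraries. EGF replicates 1, 3, 4 and 5 lay below all Saline libraries and replicate 2 within their range. The log2 fold change was -0.44 (SE 0.28, 95% interval -1.06 to 0.19, edgeR adjusted p = 0.613), and -0.23 (adjusted p = 0.367) without EGF replicate 5. Ccne2, which encodes cyclin E2, had 20.1, 24.98, 19.7, 18.8 and 6.72 CPM in the EGF libraries, against 19.4, 27.1, 27.8, 26.6 and 24.6 CPM in the Saline libraries. EGF replicates 4 and 5 lay below all Saline libraries, the rest within their range, with a log2 fold change of -0.48 and -0.27 without EGF replicate 5. Ccne1 had 8.903, 10.6, 9.702, 20.2 and 13.9 CPM in the EGF libraries, against 12.1, 12.3, 11.2, 12.6 and 10.8 CPM in the Saline libraries. EGF replicates 1 to 3 lay below and replicates 4 and 5 above the Saline range, and the log2 fold change was 0.10 (SE 0.25). Its lowest count in a library was 68, and the lowest of all 40 genes was 34, for Rfc4 in EGF replicate 5; counting error weighs most on such genes.

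Libraries of the same group differed from each other over many of the 40 genes at once. The mean of log2 CPM over the genes, relative to the Saline mean, was -0.085, -0.026, -0.21, -0.084 and -0.20 in the EGF libraries, against -0.12, -0.049, 0.11, 0.036 and 0.023 in the Saline libraries. Saline replicate 3 was the highest Saline library for 26 of the 40 genes, beside 19.8% of all genes tested, and Saline replicate 1 the lowest for 27, beside 25.2%. With EGF replicate 5 set aside, EGF replicate 3 was the lowest of 9 libraries for 20 of the 40 (14.8% of all genes), and Saline replicate 3 the highest for 21 (10.4%). The mean levels of the groups overlapped: EGF replicates 1, 2 and 4 lay between Saline replicates 1 and 3, and EGF replicates 3 and 5 below all Saline libraries. These libraries also stood at the ends of depth, with 6805106 counts in EGF replicate 3 and 8370820 in Saline replicate 3, and the part of depth was not tested. Summed over the 40 genes and without TMM scaling, the level was 4771 to 5543 CPM in EGF libraries and 4944 to 5727 CPM in Saline libraries.

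**Figure D4:**
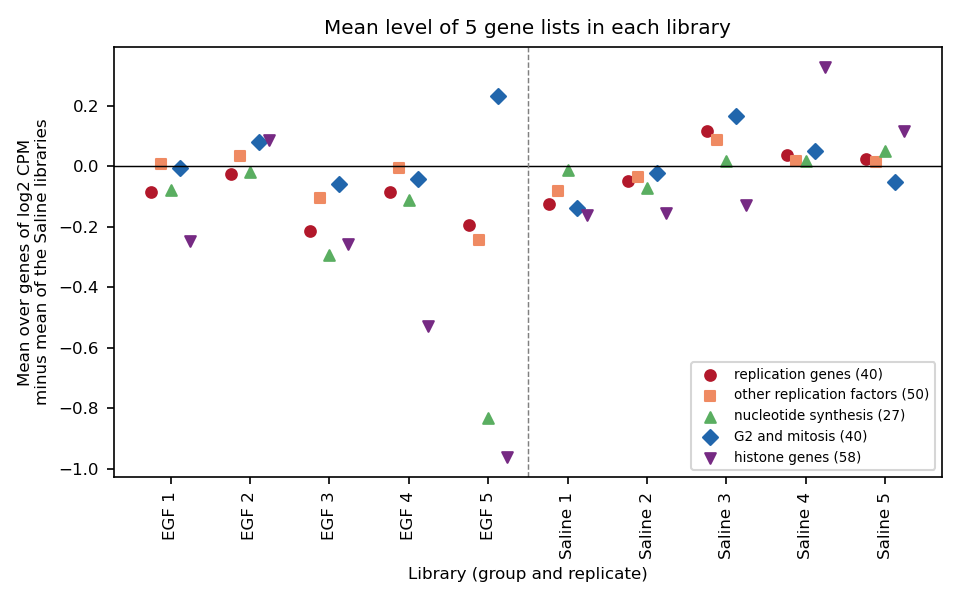
Mean over the genes of 5 lists of log2 CPM minus the mean of the Saline libraries, in each library (EGF left of the dashed line). The replication genes (red circles) lie between -0.21 and -0.026 with EGF and between -0.12 and 0.11 with saline, so that the groups overlap, while histone genes (purple) reach -0.96 in EGF replicate 5.

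The rest of the replication machinery gave no call either. Of 50 other replication factors tested, 0 passed edgeR in either direction. Their median log2 fold change was 0.0078 (leaving out 1 library at a time, -0.032 without Saline replicate 1 to 0.052 without EGF replicate 3). At an unadjusted p under 0.05 there was 1 of the 50, beside 8.87% of all genes. The 3 with the smallest p were Mcm9, a repair helicase (0.25 with all libraries and 0.23 without EGF replicate 5), the origin firing factor Mtbp (0.97 and 0.17) and the fork protection gene Timeless (0.40 and 0.16). Among 27 further genes of nucleotide synthesis 0 passed, and 22 lay below 0, beside 51.5% of all genes. The median was -0.20 (leaving out 1 library, -0.26 without EGF replicate 2 to -0.13 without EGF replicate 5). Without EGF replicates 3, 4 and 5 it was -0.0485, so much of it rested on those libraries. The log2 fold changes were -0.29 for Ppat and -0.20 for Gart, both of purine synthesis, and 0.19 for Samhd1, which breaks down dNTPs. All 3 had an adjusted p of 0.552 by edgeR. At an unadjusted p under 0.05 there were 2 of the 27, both below 0, beside 2.73% of all genes lower.

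Regulators of the G1/S transition included genes whose groups separated although none passed. Tfdp1, the partner that E2F factors need to bind DNA, had 178, 166, 159, 158 and 151 CPM in the EGF libraries, against 210.4, 186, 197, 210.5 and 199 CPM in the Saline libraries. No EGF library reached the lowest Saline library, a separation shared by 1.65% of all genes tested (log2 fold change -0.31, SE 0.072, edgeR adjusted p = 0.552). Cdkn1b, the inhibitor p27 of cyclin-dependent kinases, had 123, 129, 126, 118 and 160.2 CPM in the EGF libraries, against 100.3, 116, 103, 103 and 111 CPM in the Saline libraries. Every EGF library exceeded the highest Saline library, a separation shared by 1.62% of all genes (log2 fold change 0.30, SE 0.095, edgeR adjusted p = 0.552). Myc, a driver of growth and S phase entry, was at 249.1 ± 33.96 CPM after EGF and 293 ± 12.6 CPM after saline (SD over 5 libraries in each group), with a log2 fold change of -0.24. Of 30 such regulators 0 passed, 4 had an unadjusted p under 0.05 (8.87% of all genes), and the median was -0.067. Leaving out 1 library at a time put it between -0.15 without EGF replicate 2 and -0.018 without EGF replicate 5, with -0.12 without EGF replicate 1 and -0.11 without EGF replicate 4.

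Genes of the next phase gave no call either. Of 40 G2 and mitosis genes, 0 passed edgeR and 1 had an unadjusted p under 0.05 (8.87% of all genes). Above 0 lay 26 and below it 14, where 51.5% of all genes lay below. The median was 0.13 (leaving out 1 library, 0.028 without EGF replicate 5 to 0.17 without Saline replicate 3). The smallest p values belonged to the centromere histone Cenpa (0.60 and 0.34 without EGF replicate 5), the cytokinesis motor Kif23 (0.40 and 0.13) and Ube2c, a ubiquitin-conjugating enzyme of mitotic exit (-0.33 and -0.22). In mean level by library, the list followed the replication genes at its ends in saline, with Saline replicate 3 highest at 0.17 and Saline replicate 1 lowest at -0.14, but EGF replicate 5 stood at 0.23 for this list and at -0.20 for the replication genes. Of 58 histone cluster genes tested, whose messages are made in S phase, 0 passed. At an unadjusted p under 0.05, 7 lay below 0 and 1 above it, beside 8.87% of all genes in either direction and 2.73% lower. In all, 51 lay below 0, beside 51.5% of all genes. The median was -0.31 (leaving out 1 library, -0.43 without EGF replicate 2 to -0.21 without Saline replicate 4). Without EGF replicates 3, 4 and 5 the histone median was -0.077, so much of it rested on those libraries. Those with the smallest p were Hist1h4b (-0.51), Hist1h4k (-0.57) and Hist1h4d (-0.42), near copies that can share reads. For Hist1h4b no EGF library reached the lowest Saline library, a separation shared by 1.65% of all genes. Saline replicate 4 was highest for the histones, at 0.33, where replicate 3 was highest for the replication genes. Of 15 genes of stem cell rest, 0 passed by edgeR and 4 had an unadjusted p under 0.05 (8.87% of all genes). Above 0 lay 12 and below it 3, where 51.5% of all genes lay below, and the median was 0.18. Leaving out 1 library at a time gave a median of 0.10 without Saline replicate 4 to 0.24 without Saline replicate 1, with 0.11 without EGF replicate 2. DESeq2 called 2 of the 18 genes of this list that it tested, beside 0.162% of all genes. With quality weights, limma-voom called 1 of 15, beside 0.0932%. The smallest edgeR p values of the list belonged to Btg2 (0.61), Nr4a2 (1.03) and Nr4a1 (0.80). For each of them every EGF library exceeded the highest Saline library, a separation shared by 1.62% of all genes. The list was chosen with earlier results of these data known, so its calls cannot show an excess over all genes. Whether any of these lists differs from the replication genes in its response was not tested.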

How the data were processed

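Bulk RNA-seq of mouse HSPCs was analysed in 10 libraries, 5 with EGF and 5 with saline. Per the labels' protocols, a Qiagen RNeasy Micro kit was used for extraction, followed by rRNA depletion, a Clontech library kit and PCR. Software named in the submitters' processing notes is bcl2fastq 2.17 and STAR, with GRCm38 (mm10) as the build. How genes were counted, whether strand was used, the annotation, the sort gate and the EGF dose are each not given in the sources used here. The authors deposited whole-number counts per gene with no normalization, 55573 genes per file, and 27 symbols that were dates or differed between files were replaced by GENCODE M21 names, which also gave positions and exon lengths. PCR copies cannot be told apart, so depth speaks of counting error only. No library repeated another: the closest pair had a chi-square of 5.94 per degree of freedom.

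The test was edgeR 4.0.16 (R 4.3.3) on all 10 libraries: TMM scaling, filterByExpr (10 counts at least), a quasi-likelihood fit and Benjamini-Hochberg adjustment over 12874 genes at 0.05. CPM values are scaled by TMM, standard errors come from the F statistic, and 95% intervals from the fit's degrees of freedom. Deviations in log2 CPM used a prior count of 2. Library shares were compared by exact permutation tests (scipy 1.17.1). The test was also tried on counts simulated from the means and dispersions of these libraries. The simulated counts held no library like EGF replicate 5, so nothing is drawn from that trial here. Alternatives were RLE or no scaling factors, DESeq2 1.42.0, limma-voom 3.58.1 with and without quality weights, 2 other filters, a robust fit, the replicate number as a block, and libraries left out. The members and gene lists were chosen with earlier results of these data known. Library values were given for 25 members picked for their roles and the 6 with the smallest p, and each further list names its 3 genes with the smallest p.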

Additional observations from a re-analysis of the deposited data

Results flagged for a closer look

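Single libraries stood apart from the other 4 of their group by Dixon's ratio for 12 of the 80 pairs of gene and group examined. For independent groups chance alone gives about 1 in 20. These pairs share the same 10 libraries, so that rate is no yardstick for them, and the share over all genes was not computed. EGF replicate 5 accounted for 11 of the 12, and it was at an extreme for 81.4% of all genes tested. It was far above the other EGF libraries for Orc6 (73.4 CPM), Mcm3 (839.6 CPM), Gins1 (57.2 CPM), Fen1 (154 CPM), Lig1 (581 CPM) and Chaf1a (287 CPM). It was far below them for Cdt1 (34.6 CPM), Mcm5 (111 CPM), Rfc2 (67.8 CPM), Rfc4 (4.76 CPM) and Tk1 (24.5 CPM). The remaining case was Slbp in EGF replicate 2, at 113 CPM. Of the library measures, the number of genes with a count was far lower in EGF replicate 5, at 12731, than in the other EGF libraries. Total counts were far lower in EGF replicate 3, at 6805106, and far higher in Saline replicate 3, at 8370820, than in the rest of their groups.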

How the results depend on the processing

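In each of the 21 other settings tried, 0 of the 40 replication genes were called, and their median log2 fold change stayed below 0, between -0.11 with quality weights and -0.035 without EGF replicates 3 and 4. The number of genes called over the whole table was 1, and it was 0 with library size scaling, 27 with DESeq2, 12 with quality weights, 0 with the replicate block and 0 without EGF replicates 3 and 4. Leaving out 1 library at a time gave 0 to 8, with 8 without EGF replicate 5. Deviations from the group means gave correlations from -0.078 to 0.019 between libraries with the same replicate number. EGF replicate 5, far from the rest, entered the EGF mean, so these correlations could hardly have shown pairs. The numbers were not taken as pairs in the main fit. The median of the other replication factors changed sign in several settings and was -0.012 without EGF replicate 5. The count of the 40 replication genes below 0 also moved between settings. It was lowest at 22 without EGF replicate 3 (52.8% of all genes) and highest at 32 with quality weights (50.5%). Of the 40 genes, 23 kept the sign of their log2 fold change in every setting and 17 changed it in at least 1, 10 of them without EGF replicate 5; none of these 17 was called, and the cause was not tested. With RLE scaling, the values were 0.0039 for Orc1, 0.0052 for Pold1 and 0.0027 for Fen1. With library size scaling, the values were 0.0065 for Orc1 and 0.0026 for Pold1. With DESeq2, the values were 0.0036 for Orc1, 0.0036 for Pold1 and 0.0002 for Fen1. With limma-voom, the values were -0.13 for Gins1 and -0.0065 for Tyms. With quality weights, the values were 0.073 for Orc1, -0.055 for Orc6, -0.067 for Mcm7, -0.42 for Gins1, -0.11 for Gins3, -0.038 for Mcm10, 0.030 for Prim1, 0.054 for Pold1, -0.10 for Rfc3, -0.071 for Tyms, -0.0018 for Chaf1a and -0.13 for Ccne1. With no filter, the value was -0.0056 for Pole. With a filter of 1 CPM in 5 libraries, the values were 0.0007 for Orc1 and 0.0012 for Pold1. With the replicate block, the values were -0.12 for Gins1 and -0.0059 for Tyms. Without EGF replicates 3 and 4, the values were 0.054 for Mcm2, 0.013 for Mcm6, 0.057 for Fen1, 0.033 for Uhrf1 and -0.092 for Ccne1. Without EGF replicates 3, 4 and 5, the values were 0.029 for Orc1, -0.036 for Orc6, 0.028 for Mcm6, -0.22 for Gins1, -0.048 for Mcm10, 0.064 for Prim1, 0.075 for Pold1, -0.088 for Rfc3, -0.0092 for Tyms, 0.048 for Uhrf1 and -0.28 for Ccne1. Leaving out 1 library at a time gave -0.061 to 0.084 for Orc1, -0.045 to 0.43 for Orc6, -0.076 to 0.039 for Mcm2, -0.084 to 0.12 for Mcm7, -0.44 to 0.28 for Gins1, -0.21 to 0.30 for Gins3, -0.11 to 0.0015 for Prim1, -0.045 to 0.060 for Pold1, -0.018 to 0.031 for Pole, -0.070 to 0.22 for Rfc3, -0.10 to 0.032 for Fen1, -0.092 to 0.11 for Tyms, -0.0003 to 0.31 for Chaf1a, -0.071 to 0.017 for Uhrf1 and -0.13 to 0.20 for Ccne1.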
